A study of Homo sapiens with 40 samples.

Results

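Open chromatin at the 7 genes of the FOS and JUN family (FOS, FOSB, FOSL1, FOSL2, JUN, JUNB and JUND) was followed by ATAC-seq in a HER2-overexpressing breast cancer cell line and its trastuzumab-resistant derivative. ATAC-seq maps open chromatin by letting a transposase cut accessible DNA. Peaks from 40 libraries were merged where they shared at least 1 bp, and a merged region was kept if at least 2 libraries had a peak there, which gave 71600 regions. The 85 regions whose midpoint lay within 1 of the 7 gene bodies or up to 50 kb from either end were taken as the family's regions: 16 for FOSB, 14 each for FOSL2 and JUNB, 12 for JUND, 11 for FOS, 10 for FOSL1 and 8 for JUN. Membership rested on distance only, so several regions lay nearer to another gene.

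BT474 is a breast ductal carcinoma line that overexpresses HER2 and is sensitive to trastuzumab, and BT474R is 1 resistant clone derived from it, so a difference between the lines is a difference from that clone. All cells were serum-starved. Baseline cells were collected untreated at 0 h, and the others received epidermal growth factor (EGF), heregulin (HRG) or water as the vehicle control for 1, 12 or 24 h, giving 20 groups of 2 libraries. EGF binds the EGF receptor, and HRG binds HER3 and HER4, partners of HER2. Groups are named by ligand and line, as in EGF-BT474. Treatments were done in duplicate on plated cells, and nothing in the sources states that duplicates came from separate passages or days, so p-values measure the spread between these duplicates only. A lower signal in bulk cells can come from fewer cells with an open site or from less opening per cell, and these cannot be told apart.

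FOS and JUN proteins are basic leucine zipper factors that pair to form AP-1, which binds a short palindromic DNA motif. JUN proteins can pair with themselves, with FOS proteins or with ATF factors, whereas FOS proteins need a partner. FOS, FOSB, JUN and JUNB are immediate early genes: growth factors induce their transcription within the first hour through MAP kinases and the factors SRF, ELK and CREB, without new protein synthesis. FOSL1 and FOSL2, also called FRA1 and FRA2, are usually induced later, and JUND is expressed more steadily.

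The sequences below are those of 4 regions that passed a ligand test by rank, and of the 3 member promoters that held an AP-1-type motif. The 4 regions were chosen after their values were seen, because their courses over time are described in full. Among them, FOSL1 +49.3 kb entered that test only through ligand libraries, so its values do not support a response. Capitals mark the AP-1 motif (TGANTCA) or its longer CRE-like form (TGANNTCA), found on either strand. N is any base, so these patterns are wider than TGACTCA of AP-1 and TGACGTCA of JUN and ATF pairs, and a match need not be such a site. Each region is shown as 101 bp around its summit on the plus strand of hg38. They lay at chr11:65851421-65851521 for FOSL1 +49.3 kb, chr1:58779963-58780063 for JUN +4.2 kb, chr1:58727513-58727613 for JUN +56.4 kb and chr19:45455870-45455970 for FOSB −12.0 kb, where the distance runs from the 5′ end of the gene in its direction of transcription. Each promoter runs from 250 bp before to 50 bp after the RefSeq start on the strand of the gene (GRCh38.p14), at chr1:58783998-58784297 (minus) for JUN, chr19:18281573-18281872 (minus) for JUND and chr2:28392608-28392907 (plus) for FOSL2. The JUN promoter held its CRE-like match at position −67, JUND held matches at −200 and −54, and FOSL2 held an AP-1 match at 5 bp past the start. No such match was in the FOS, FOSB and JUNB promoters of the same length, and 6 of the 7 members were in the promoter table, FOSL1 being the other.
FOSL1 +49.3 kb: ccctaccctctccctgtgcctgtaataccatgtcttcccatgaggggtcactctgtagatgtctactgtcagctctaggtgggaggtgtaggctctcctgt
JUN +4.2 kb: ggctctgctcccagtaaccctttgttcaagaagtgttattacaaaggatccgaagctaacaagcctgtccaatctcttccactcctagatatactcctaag
JUN +56.4 kb: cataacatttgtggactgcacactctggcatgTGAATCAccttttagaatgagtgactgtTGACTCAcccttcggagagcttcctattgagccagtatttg
FOSB −12.0 kb: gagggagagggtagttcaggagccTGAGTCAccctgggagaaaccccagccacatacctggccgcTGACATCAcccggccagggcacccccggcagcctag
JUN promoter: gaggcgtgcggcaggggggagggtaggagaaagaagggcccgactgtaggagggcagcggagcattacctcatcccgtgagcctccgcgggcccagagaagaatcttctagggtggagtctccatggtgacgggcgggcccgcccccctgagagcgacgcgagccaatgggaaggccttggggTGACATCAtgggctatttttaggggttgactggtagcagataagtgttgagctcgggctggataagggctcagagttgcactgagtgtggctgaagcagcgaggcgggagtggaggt
JUND promoter: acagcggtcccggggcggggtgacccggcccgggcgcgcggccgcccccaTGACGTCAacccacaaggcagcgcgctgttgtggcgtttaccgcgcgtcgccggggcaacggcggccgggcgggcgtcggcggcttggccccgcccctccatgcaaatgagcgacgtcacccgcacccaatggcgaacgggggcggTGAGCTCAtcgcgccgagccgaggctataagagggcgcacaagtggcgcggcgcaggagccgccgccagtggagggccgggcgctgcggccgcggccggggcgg
FOSL2 promoter: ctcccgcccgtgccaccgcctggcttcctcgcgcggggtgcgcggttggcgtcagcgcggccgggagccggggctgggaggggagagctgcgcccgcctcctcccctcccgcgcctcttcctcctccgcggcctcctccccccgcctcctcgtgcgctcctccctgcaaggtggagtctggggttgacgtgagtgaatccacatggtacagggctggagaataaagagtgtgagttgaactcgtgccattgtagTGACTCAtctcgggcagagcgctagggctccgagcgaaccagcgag

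The peak lists of single libraries held 47571 to 56846 peaks in BT474 and 32479 to 56494 in BT474R, and the control list of BT474R at 12 h was the shortest. Read depth is unknown, since only peaks were analysed. Each peak carries a score, the area under its curve of significance, and its rank percentile within its own list is used here as the level: 100 is the highest-scoring peak of the library, and 0 was given where a library had no peak. The score grows with peak width, so levels of different genes are compared by the percentile of the summit −log10 p, which does not. Luminal identity showed in ERBB2 (mean percentile 99.75 and 99.81 in BT474 and BT474R), FOXA1 (99.78 in both), KRT8 and KRT18 and EPCAM, all open in 40 of 40 libraries. The region at the annotated 5′ end of the GATA3 gene was open in 19 BT474 and 0 BT474R libraries, and ESR1 had no region at its gene's 5′ end. Each marker was looked up at that annotated end only, so other starts of GATA3 and ESR1 were not examined. No region lay at the start of PTPRC, CD3E and SPI1 (blood) or PECAM1 (endothelium), or of KRT14 and TP63 (basal epithelium). VIM was open in all 40 libraries and ZEB1 in 20 BT474 and 16 BT474R libraries. KRT5, the basal marker with a region, was open in 7 BT474 and 14 BT474R libraries.

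In both lines 6 of the 7 family promoters were open in every library, before any ligand was added. By summit percentile (mean ± SD over the 20 libraries of a line), JUN stood at 95.1 ± 0.828 in BT474 and 96.01 ± 1.17 in BT474R, JUNB at 95.1 ± 1.14 and 90.9 ± 2.02, and FOSL2 at 94.0 ± 1.07 and 95.0 ± 0.903. These 3 promoters differed by no more than about their spread in BT474. JUND followed at 80.7 ± 3.29 and 88.3 ± 2.95, FOS at 79.7 ± 2.95 and 65.8 ± 10.2, and FOSL1 at 78.7 ± 3.91 and 76.1 ± 9.63. In BT474 these last 3 lay within their spread of each other, whereas in BT474R JUND stood above FOSL1 and FOS, which lay about 1 SD apart. The FOSB promoter stood apart at 10.4 ± 12.1 and 1.97 ± 6.05, with a peak in 10 of 20 BT474 and 2 of 20 BT474R libraries.

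FOSB encodes the FOS protein closest to FOS itself in its response to stimuli. Its promoter region (chr19:45467187-45468070) was open in both baseline and both 1 h control libraries of BT474, at percentiles of 34.1, 11.8, 31.0 and 4.66. HRG-BT474 at 1 h had 29.4 and 36.7, EGF-BT474 at 1 h had 0 and 19.3, and the controls had 0 and 0 at 12 h and 48.8 and 6.78 at 24 h. Of the ligand libraries at 12 and 24 h in BT474, 1 of 8 had a peak, at 24.4. The region inside the FOSB gene itself (FOSB +1.9 kb, chr19:45468827-45470949, intron) was open in 40 of 40 libraries, at 89.0 ± 3.20 in BT474 and 89.1 ± 2.35 in BT474R on the score scale.

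**Figure D1:**
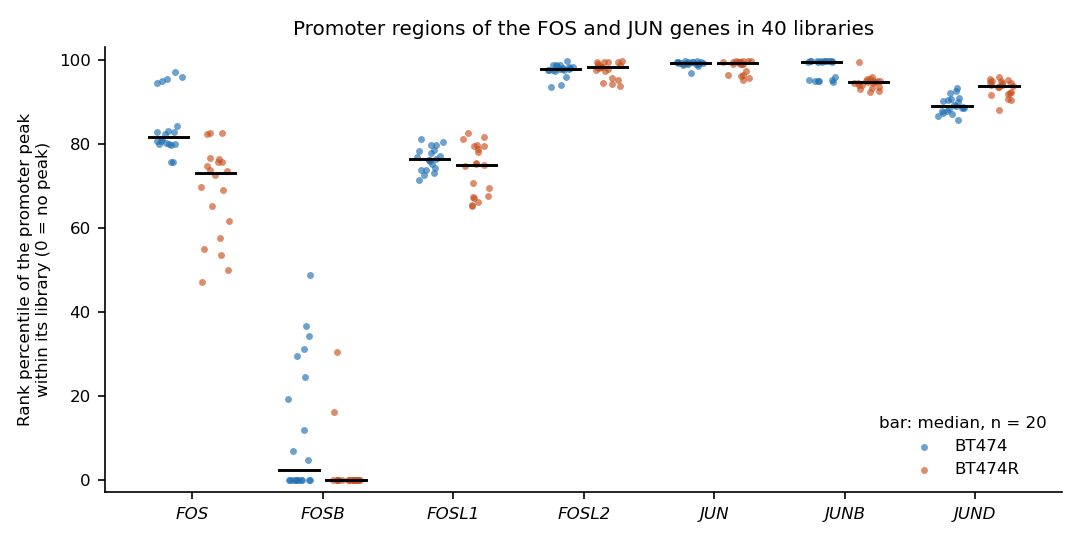
Rank percentile of the peak score (y axis, 0 where no peak) of the 7 promoter regions in the 20 libraries of BT474 and of BT474R. Points are libraries and bars are medians. JUN, JUNB and FOSL2 sit near the top of every list, FOS spreads most among the 6 promoters open in all libraries, and FOSB lies at or near 0 in most.

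Ranks by score at the widest promoters moved with how the peak caller divided them. JUNB encodes a JUN protein that often restrains JUN, and its promoter region (chr19:12791107-12794800, 3694 bp) had a percentile of 99.3 to 99.7 in the 13 BT474 libraries with 1 peak there and of 94.7 to 95.8 in the 6 with 2 peaks. In BT474R, 17 libraries had 2 peaks there, at 92.4 to 95.9. At the FOS promoter (chr14:75276897-75279667, 2771 bp), 5 BT474 libraries with 1 peak stood at 94.5 to 97.0 and 15 with 2 peaks at 75.6 to 84.1. BT474R had 2 peaks in 13 libraries, at 57.4 to 82.6, and 3 peaks in 7, at 47.1 to 82.4. JUND and FOSL1 had 1 peak in all 40 libraries. For the promoters divided in this way (JUN, JUNB, FOS and FOSL2), the value with the scores of all peaks summed is therefore given beside each called difference, an alternative chosen after seeing the data.

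**Figure D2:**
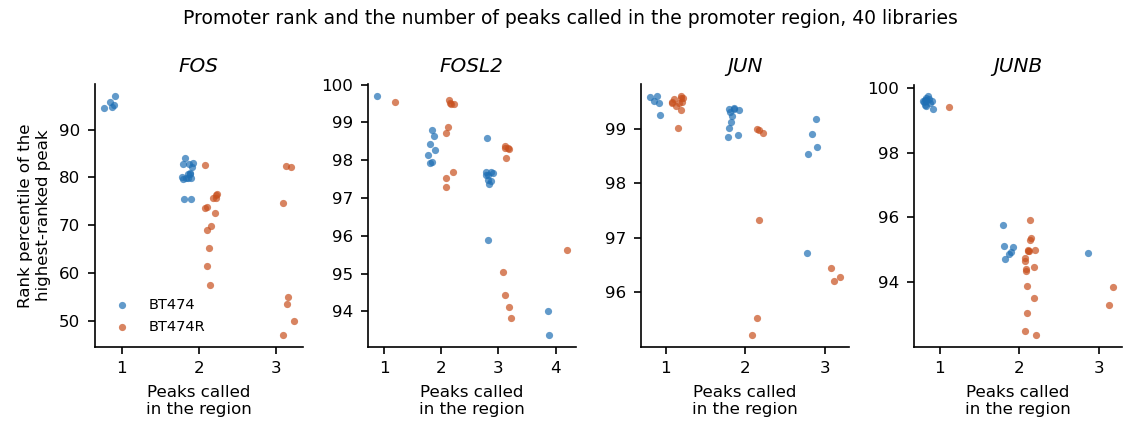
Rank percentile of the peak score (y axis) against the number of peaks a library has in the promoter region (x axis) for FOS, FOSL2, JUN and JUNB. Each point is a library, coloured by line, and at JUNB the 13 BT474 libraries with 1 peak stand at 99.3 to 99.7, above every library with 2 or 3.

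Around the promoters, 40 of the 85 regions were open in all 40 libraries (47.06%), against 25166 of all 71600 regions (35.148%). FOSL1 had 7 of 10 regions open throughout, JUNB 9 of 14 and FOSB 10 of 16, and these 3 windows also hold the starts of 9, 6 and 4 other protein-coding genes. The FOS and JUN windows hold no other start, with 5 of 11 and 2 of 8 regions open throughout. FOSL2 had 3 of 14 and JUND 4 of 12. Of the 85 regions, 61 had no protein-coding start within 1 kb, with 1 start counted per gene. The summit was intergenic in 41, intronic in 35 and exonic in 9.

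Apart from the promoters, the highest-ranked region near FOS was FOS −19.6 kb (chr14:75258627-75259773, intergenic), with a mean score percentile over the libraries of 93.3 in BT474 and 88.9 in BT474R, though in BT474R alone FOS −23.9 kb was higher, at 90.1. Near JUN it was JUN −31.2 kb (chr1:58813744-58816778, intergenic, 93.3 and 82.8), and near FOSL2 it was FOSL2 +44.8 kb (chr2:28436202-28438299, intergenic, 98.1 and 98.7). JUNB −16.1 kb (chr19:12774766-12776061, an intron of HOOK2 as annotated) had 96.4 and 95.7, and FOSB −44.0 kb (chr19:45423350-45424603, an ERCC1 intron as annotated) had 93.0 and 94.1. Only the outermost 5′ end of each gene counted as its start. Whether these regions cover another start of HOOK2 or ERCC1 was not examined. Near FOSL1 and JUND the highest regions were at the starts of other genes, CFL1 and MUS81 (99.7 and 99.0) and LSM4 (77.0 and 79.2). Each of these 7 was open in 40 of 40 libraries.

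**Figure D3:**
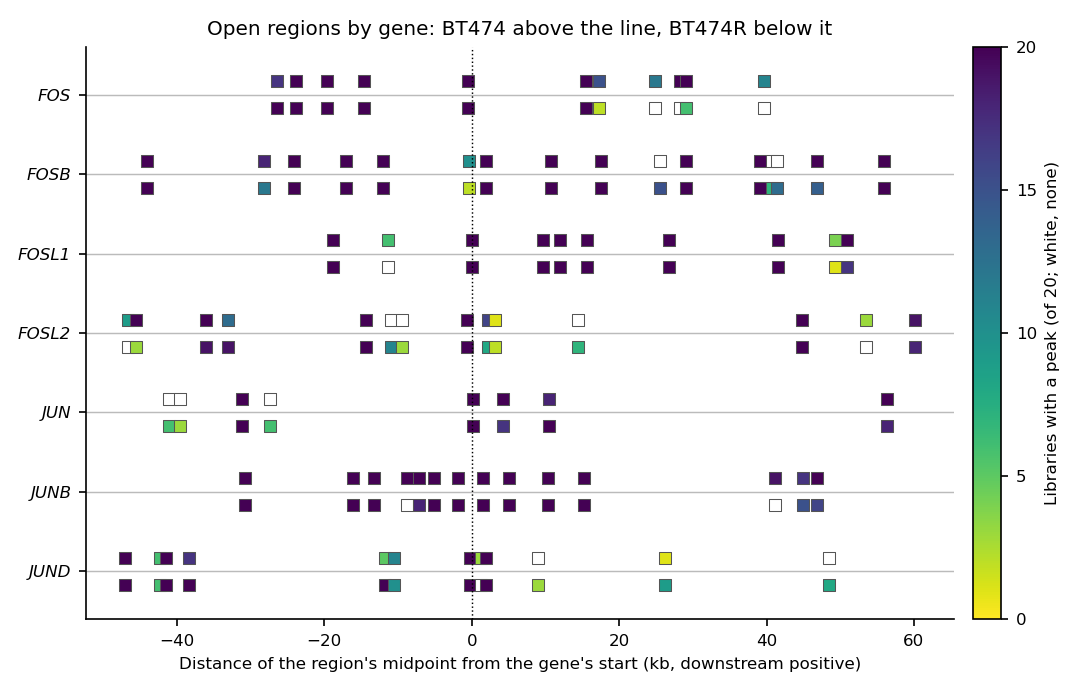
The 85 regions by distance from the 5′ end of their gene (x axis, kb, in the direction of transcription), with BT474 above and BT474R below each gene's line. The colour gives the number of the line's 20 libraries with a peak, so that dark pairs are open in both lines and single dark marks, as at FOS +28.3 kb and JUNB −8.8 kb, in 1 line.

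The comparison of each ligand with the water control asks what the ligand does to accessibility in each line. By presence of a peak in 6 ligand against 6 control libraries, 0 of 7 member regions that could be called were called in EGF-BT474 (Fisher's exact test, unadjusted p below 0.05), where 19.0% of all regions that could be called were. HRG-BT474 had 0 of 2 (all regions 24.7%), EGF-BT474R 0 of 3 (4.08%) and HRG-BT474R 0 of 9 (2.31%). Among those that could be called, the nearest were FOSL2 −33.0 kb, open in 5 of 6 EGF-BT474 and 2 of 6 control libraries, and FOSL2 −11.0 kb, open in 5 of 6 HRG-BT474R and 2 of 6 control libraries (exact p = 0.2424 for each). FOSL2 −33.0 kb was also open in 6 of 6 HRG-BT474 libraries, where the totals allowed no smaller p than the one it had (exact p = 0.06061). Most members were open in too many libraries for presence to change, so ranks carried the ligand comparisons.

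By rank, a minority of the family's regions passed the test for EGF or HRG in BT474 and fewer did in BT474R. Over all regions the share that passed was also lower in BT474R for either ligand. Ligand and control were compared over 1, 12 and 24 h and at 1 h alone, with limma and Benjamini-Hochberg adjusted p below 0.05 over all regions, and regions with a peak in at least 2 libraries of the line were tested. In EGF-BT474, 8 regions rose and 6 fell of 72 tested (19.4%, all regions 18.5%), and in HRG-BT474 10 rose and 10 fell (27.8%, all regions 19.6%). EGF-BT474R had 3 up and 4 down of 75 (9.33%, all regions 16.5%), and HRG-BT474R 1 up and 1 down (2.67%, all regions 6.72%). The members' shares in BT474 lie near those of all regions. Among regions open in all 40 lists, the split was 1 up and 9 down for either ligand in BT474, and with an equal number of top peaks per list it was 4 up and 12 down for EGF and 4 up and 13 down for HRG, so the balance of directions depended on the scaling. EGF-BT474R had 1 up and 5 down and 3 up and 8 down under those scalings. The 72 and 75 tested are those that passed the filter on peaks, not all 85. In BT474, FOSL1 +49.3 kb, FOSL1 −11.3 kb and FOSL2 +53.5 kb had peaks in ligand libraries only and passed the filter through them, so these 3 could only rise. They are 1 of the 8 rises with EGF and 3 of the 10 with HRG, and FOSL1 +49.3 kb is 1 of the rises with either ligand at 1 h.

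The median difference over the members tested was 0.33 percentile points in EGF-BT474 and −0.48 in HRG-BT474, beside 1.28 and 0 over all regions. In BT474R the medians were −0.74 for EGF and 0.93 for HRG, beside −0.03 and 2.27. Over all regions, 10178 rose and 941 fell in EGF-BT474 and 3893 rose and 128 fell in HRG-BT474R. EGF and HRG share their control libraries in each comparison, so the values for the ligands are given side by side.

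At 1 h alone, 7 of 72 member regions rose and 0 fell in EGF-BT474 (9.72%, all regions 3.82%). HRG-BT474 had 6 up and 4 down (13.9%, all regions 9.61%). In EGF-BT474R 0 rose and 3 fell of 75 (4.00%, all regions 3.40%), and in HRG-BT474R limma called 0 of 75 (all regions 0.856%), with 3 at an unadjusted p below 0.05. The median over members at 1 h was 1.01 for EGF-BT474 and 0.28 for HRG-BT474 (all regions 0.23 and 0), and −2.64 for EGF-BT474R (all regions −3.02). These 1 h counts rest on pairs of libraries. Without EGF replicate 1 or either control replicate, the EGF-BT474 count was 2, and without control replicate 2 the HRG-BT474 count was 3.

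**Figure D4:**
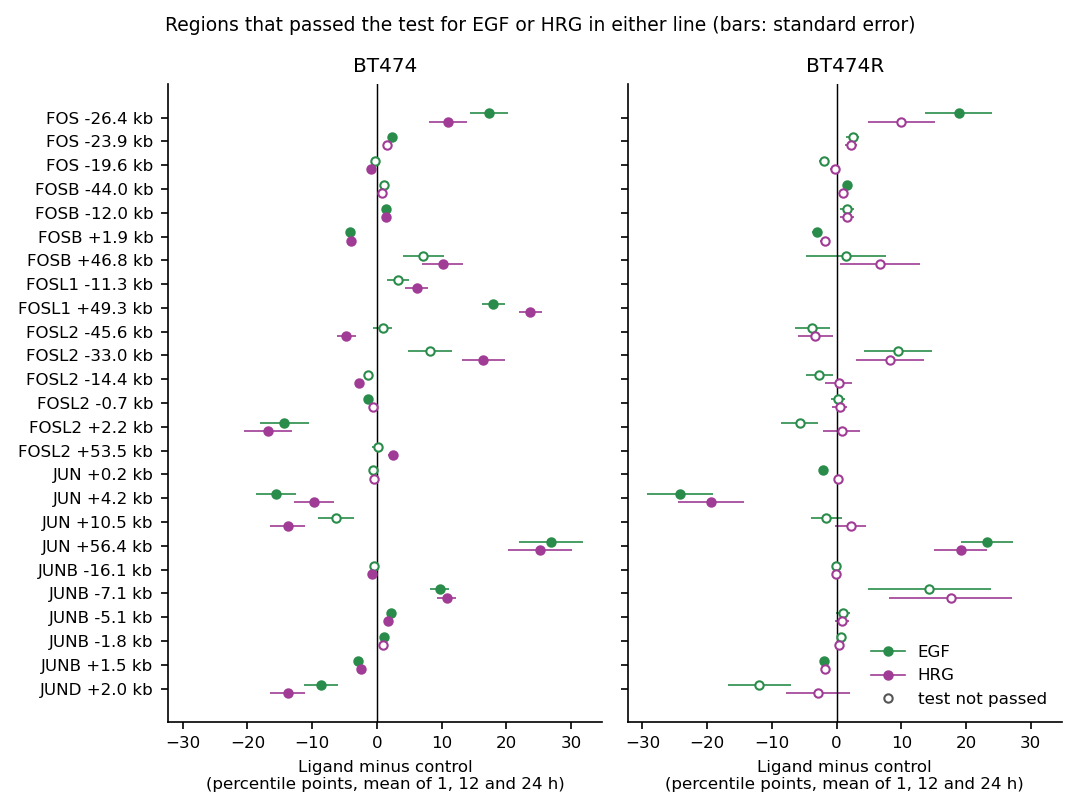
Difference in rank percentile, ligand minus control over 1, 12 and 24 h (x axis, percentile points, bars are the standard error), for the 25 regions that passed the test for EGF or HRG in either line. Filled points passed. JUN +56.4 kb lies right of 0 and JUN +4.2 kb left of 0 for both ligands in both lines.

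JUN, the founding AP-1 subunit, had the distal region that rose with both ligands in both lines. JUN +56.4 kb (chr1:58727437-58727820, intergenic) had control percentiles in BT474 of 22.4 and 11.8 at 1 h, 12.9 and 4.55 at 12 h and 28.6 and 0.178 at 24 h, with 12.1 and 10.9 at baseline. EGF-BT474 had 47.0 and 29.8, 32.4 and 48.9, and 39.9 and 43.9 at those times. HRG-BT474 had 40.2 and 36.6, 37.5 and 34.5, and 39.7 and 43.3. All 12 ligand libraries stood above all 6 controls. The differences were 26.9 (SE 4.90, limma adjusted p = 0.001837) for EGF and 25.2 (adjusted p = 0.002619) for HRG. With each list cut to the same number of top peaks they were 4.55 and 4.38 and were not called (adjusted p = 0.2248 and 0.2275).

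In BT474R the controls at JUN +56.4 kb had 33.9 and 28.2 at 1 h, 0 and 0 at 12 h and 9.25 and 20.7 at 24 h. EGF-BT474R had 42.8 and 41.1, 22.7 and 27.5, and 43.4 and 54.1. HRG-BT474R had 43.9 and 49.4, 31.1 and 18.02, and 40.01 and 24.8. Each ligand library was above both controls of its own time. The difference was 23.2 (SE 4.08, adjusted p = 0.001617) for EGF and 19.2 (adjusted p = 0.01555) for HRG. With the 12 h libraries left out, where the control lists are shortest, the HRG value was 16.5 and was not called (adjusted p = 0.3104), whereas the EGF call held. The HRG call was also lost without HRG replicate 2 at 1 h, HRG replicate 1 at 12 h or control replicate 1 at 24 h (adjusted p = 0.05156, 0.05522 and 0.05793).

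JUN +4.2 kb (chr1:58779187-58780548) lies inside the JUN gene body as GENCODE records it, in an intron of that annotation only. It had the opposite order at early and late times. At 1 h in BT474 the control had 51.4 and 43.8, EGF 69.9 and 71.4, and HRG 69.4 and 82.5. At 12 h the control had 62.8 and 60.8, EGF 23.1 and 34.8, and HRG 30.0 and 38.3. At 24 h the control had 61.2 and 62.8, EGF 25.0 and 24.9, and HRG 25.8 and 38.7. Ligand libraries were thus above both controls at 1 h and below both at 12 and 24 h, with no overlap at any time. The 1 h rise was 23.1 (SE 5.43, adjusted p = 0.03406) for EGF and 28.3 (adjusted p = 0.005783) for HRG. Over the 3 times together the region fell by 15.6 for EGF (adjusted p = 0.003533) and fell by 9.70 for HRG (adjusted p = 0.04573), a mean over opposite signs. Those pooled calls were lost without the 12 h libraries (adjusted p = 0.2565 and 0.9284), and the HRG call also without any 1 of 14 single libraries (adjusted p = 0.05715 to 0.135). The 12 and 24 h differences were not tested on their own.

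In BT474R, JUN +4.2 kb at 1 h had 42.9 and 50.3 in the control, 62.4 and 51.8 with EGF and 41.8 and 51.2 with HRG. At 12 h the controls had 43.4 and 47.6, EGF had 0 and 0, and HRG 19.3 and 0. At 24 h the controls had 50.6 and 57.4, EGF 30.1 and 3.02, and HRG 37.5 and 25.9. The late ligand libraries were again all below their controls. Over the 3 times it fell by 24.1 for EGF (SE 5.11, adjusted p = 0.005538) and fell by 19.4 for HRG (adjusted p = 0.0409), and both were lost without the 12 h libraries (adjusted p = 0.2492 and 0.7479). The HRG call was lost without any 1 of 14 single libraries of the line (adjusted p = 0.05082 to 0.1093).

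JUN +10.5 kb (chr1:58773256-58773772, intergenic, with a CRE-like match) fell in HRG-BT474 by 13.8 (SE 2.77, adjusted p = 0.003245). At 1 h it had no peak in either HRG-BT474 library and 20.6 and 30.5 in the controls, and EGF-BT474 had 17.8 and 5.39. At 12 and 24 h HRG-BT474 had 33.5, 34.5, 31.9 and 33.8, below the controls at 35.9, 40.1, 44.3 and 45.1. At the JUN promoter (chr1:58781551-58786100) EGF-BT474R fell by 2.06 (adjusted p = 0.005564), from 99.1 ± 0.882 to 97.0 ± 1.91 (SD, n = 6). With scores summed over its peaks the difference was −0.38 and was not called (adjusted p = 0.1672).

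JUNB had an upstream region that rose in BT474. JUNB −7.1 kb (chr19:12783693-12785121, HOOK2 intron) had controls of 69.9 and 63.1 at 1 h, 64.8 and 61.1 at 12 h and 72.0 and 65.8 at 24 h. HRG-BT474 had 73.8 and 72.7, 78.3 and 79.6, and 79.7 and 77.1. EGF-BT474 had 72.5 and 74.6, 77.0 and 71.9, and 80.8 and 77.8. Every HRG library was above every control, and every EGF library was above both controls of its time. The rise was 10.8 (SE 1.49, adjusted p = 0.0002185) for HRG and 9.68 (adjusted p = 0.0005529) for EGF, and by summit rank the EGF rise was 8.27 and was not called (adjusted p = 0.08269). In BT474R the region spread from 0 to 67.7 and passed no ligand test. Nearer regions moved less: JUNB −5.1 kb rose by 2.24 with EGF (adjusted p = 0.01419), and JUNB −1.8 kb rose at 1 h by 2.58 with EGF (adjusted p = 0.02471) and 2.17 with HRG (adjusted p = 0.02951). JUNB −16.1 kb fell by 0.76 with HRG (adjusted p = 0.008284).

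The JUNB promoter had percentiles of 99.4 to 99.7 in all 6 BT474 controls. At 1 h EGF-BT474 had 99.57 and 99.54 and HRG-BT474 99.6 and 99.6. At 12 h they had 95.1 and 95.8 and 95.1 and 99.3, and at 24 h 94.9 and 94.9 and 94.7 and 94.9. In ranks the promoter fell by 2.97 for EGF (adjusted p = 0.001159) and fell by 2.39 for HRG (adjusted p = 0.00464). Every late ligand library but 1 of HRG at 12 h was low, and these are the libraries in which the caller divided the promoter into 2 or 3 peaks. With the scores of its peaks summed the differences were −0.22 and −0.23 and were not called (adjusted p = 0.1388 and 0.122). EGF-BT474R fell by 1.99 (adjusted p = 0.02392), with −0.55 when summed (adjusted p = 0.1571).

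In the JUND window, 1 region passed a ligand test. Not all of its 12 regions passed the filter on peaks in BT474. The share of all regions that passed there was 18.5% for EGF and 19.6% for HRG, and so small a window gives no share of its own. JUND +2.0 kb (chr19:18279388-18279880, just past the 3′ end of the gene) had controls in BT474 of 40.1 and 42.3 at 1 h, 48.2 and 47.7 at 12 h and 51.7 and 49.2 at 24 h. HRG-BT474 had 28.5 and 26.6, 38.3 and 38.1, and 38.6 and 26.1, all below every control. EGF-BT474 had 38.7 and 28.1, 42.5 and 37.8, and 39.3 and 40.8. The region fell by 13.8 with HRG (SE 2.65, adjusted p = 0.00239) and fell by 8.66 with EGF (adjusted p = 0.03729), and the EGF call was lost without the 12 h libraries (adjusted p = 0.136) or without any 1 of 12 single libraries (adjusted p = 0.0507 to 0.094). The JUND promoter passed no ligand test in either line.

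FOS, the prototype immediate early gene, passed no ligand test at its promoter in either line. At 1 h the promoter had 84.1 and 79.6 in the BT474 control, 82.9 and 79.9 with EGF and 82.8 and 95.3 with HRG. In BT474R at 1 h it had 73.8 and 76.6 in the control, 72.5 and 69.0 with EGF and 73.5 and 75.7 with HRG. The groups overlapped in BT474, and in BT474R both EGF libraries lay below both controls while HRG overlapped them. The 1 h differences were −0.43 and 7.15 for EGF and HRG in BT474 and −4.39 and −0.57 in BT474R, with adjusted p of 0.5629 or more.

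FOS −26.4 kb (chr14:75252106-75252676, intergenic) was the FOS region that rose. In BT474 the control had 8.81 and 1.18 at 1 h, 14.0 and 3.49 at 12 h and 5.67 and 0 at 24 h, and baseline libraries had no peak. EGF-BT474 had 22.01 and 13.9, 18.1 and 23.9, and 22.1 and 36.9. HRG-BT474 had 6.19 and 9.98, 18.6 and 17.1, and 21.2 and 25.8. EGF exceeded both controls at each time, and HRG did so at 12 and 24 h while overlapping them at 1 h. The rise was 17.3 for EGF (SE 2.98, adjusted p = 0.001234) and 11.0 for HRG (adjusted p = 0.01974), and the HRG call was lost without the 12 h libraries (adjusted p = 0.05754) or without any 1 of 4 single libraries (adjusted p = 0.0536 to 0.06383).

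In BT474R, FOS −26.4 kb was already higher, at 42.8 and 36.6 in baseline libraries. Controls had 61.7 and 54.2, 11.7 and 43.0, and 16.8 and 36.9 at 1, 12 and 24 h, and EGF-BT474R had 60.6 and 49.6, 53.1 and 48.8, and 61.0 and 64.6. EGF was above control at 12 and 24 h and overlapped it at 1 h. The rise was 18.9 (SE 5.17, adjusted p = 0.02416), lost without the 12 h libraries (adjusted p = 0.07053) or without any 1 of 6 single libraries (adjusted p = 0.05006 to 0.07546). FOS −23.9 kb (chr14:75254308-75255539), which lies next to it and was open in all libraries, rose by 2.28 in EGF-BT474 (adjusted p = 0.01654), a call lost without any 1 of 3 single libraries (adjusted p = 0.05284 to 0.05492).

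FOSB −12.0 kb (chr19:45455294-45456621, ERCC1 intron) rose at 1 h in BT474. Controls had 88.4 and 89.5, EGF 93.5 and 93.2, and HRG 94.1 and 94.8, with no overlap. The differences were 4.42 (SE 0.549, adjusted p = 0.0009472) and 5.51 (adjusted p = 6.662e-05). By 12 h the values were 89.1 and 89.2 in controls, 88.0 and 88.1 with EGF and 88.7 and 88.6 with HRG. In BT474R the 1 h controls already stood at 92.0 and 93.1, beside 93.6 and 93.0 with EGF and 93.9 and 93.0 with HRG. By the rank of the summit the 1 h rises were 1.22 and 2.07 and were not called (adjusted p = 0.557 and 0.142).

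FOSB +46.8 kb (chr19:45514571-45514974, a VASP intron) rose at 1 h from 31.0 and 27.5 to 52.5 and 49.1 with EGF (adjusted p = 0.04868) and to 48.7 and 51.0 with HRG (adjusted p = 0.03349). Ligand and control libraries did not overlap. The EGF call was lost without the 12 h libraries from the fit (adjusted p = 0.05498) or without any 1 of 15 single libraries (adjusted p = 0.05005 to 0.2339). The HRG call was lost without any 1 of 4 single libraries (adjusted p = 0.09757 to 0.1733). FOSB +1.9 kb, the region in the gene body, fell over the 3 times. At 24 h in BT474 it had 93.8 and 93.8 in the controls, 84.5 and 87.6 with EGF and 87.8 and 85.3 with HRG, whereas at 1 h the ligand libraries (90.3 to 92.0) were above the controls (89.1 and 87.8). The pooled differences were −4.11 for EGF (SE 0.693, adjusted p = 0.001067), −3.95 for HRG (adjusted p = 0.001275) and −2.998 for EGF-BT474R (adjusted p = 0.01667). FOSB −44.0 kb rose by 1.56 in EGF-BT474R (adjusted p = 0.008769).

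The FOSL1 window held the region with the largest ligand difference among the members. FOSL1 encodes FRA1, a FOS protein without the activation domain of FOS. FOSL1 +49.3 kb (chr11:65850226-65852372) lies in annotated introns of CFL1 and SNX32, and nothing measured here links it to FOSL1. It had 66.1 and 76.1 in HRG-BT474 and 56.9 and 51.05 in EGF-BT474 at 1 h. In BT474R, 1 EGF library at 1 h had a peak, at 5.23. The other 35 libraries had none, including all baseline, control, 12 h and 24 h libraries of both lines. The 1 h differences in BT474 were 71.1 for HRG (SE 3.12, adjusted p = 6.835e-08) and 54.0 for EGF (adjusted p = 1.556e-06). The region entered the test only through those 4 libraries, so it had to be higher with ligand, and these values describe it rather than support a response. By presence it was open in 2 of 6 libraries of each ligand and 0 of 6 controls (exact p = 0.4545 for each), too few for that test to call.

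FOSL1 +50.9 kb (chr11:65849286-65850120, an SNX32 exon), next to it, had 8.53 and 7.96 in the 1 h controls of BT474, 44.8 and 48.7 with EGF and 41.0 and 54.6 with HRG. The rises were 38.5 (SE 7.93, adjusted p = 0.0183) and 39.6 (adjusted p = 0.00754), and by summit rank they were 3.57 and 11.6 and were not called (adjusted p = 0.7698 and 0.05538). At 12 and 24 h the ligand libraries overlapped or lay below the controls. FOSL1 +9.7 kb rose by 2.02 with EGF at 1 h (adjusted p = 0.02722). The FOSL1 promoter (chr11:65900158-65900805) had 76.2 and 77.0 in the 1 h controls of BT474, 81.2 and 79.8 with EGF and 80.4 and 79.7 with HRG, with no overlap. Those differences of 3.87 and 3.40 did not pass (adjusted p = 0.1736 and 0.174).

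FOSL2, which encodes FRA2, had regions that fell and regions that rose. FOSL2 +2.2 kb (chr2:28394392-28394897, a FOSL2 intron) had 22.01 and 27.5 in the 1 h BT474 controls, 8.82 and 2.26 with EGF and 0 and 0 with HRG. At 12 h the values were 15.8 and 17.6, 14.9 and 0, and 7.27 and 1.93. At 24 h they were 24.9 and 24.9, 13.3 and 7.81, and 22.3 and 0. Each ligand library lay below both controls of its time. The pooled difference was −16.9 for HRG (SE 3.73, adjusted p = 0.006068) and −14.3 for EGF (adjusted p = 0.0168), the latter lost without EGF replicate 2 at 12 h (adjusted p = 0.0544). At 1 h HRG-BT474 fell by 24.8 (adjusted p = 0.02966).

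FOSL2 −14.4 kb (chr2:28377192-28378933, intergenic) fell with HRG, from 93.6 and 93.9 to 86.3 and 89.9 at 1 h in BT474. The 1 h difference was −5.58 (adjusted p = 0.006294) and the pooled one −2.72 (adjusted p = 0.007639). FOSL2 −45.6 kb (chr2:28346558-28347132) fell at 1 h with HRG from 64.8 and 65.1 to 51.8 and 55.4 (difference −11.3, adjusted p = 0.01588). FOSL2 −33.0 kb (chr2:28359131-28359746) rose with HRG. It had no peak in 4 of 6 BT474 controls and 9.58 and 12.96 in the others, against 7.79, 19.8, 19.0, 30.6, 26.7 and 17.4 in HRG-BT474, a rise of 16.5 (SE 3.38, adjusted p = 0.003775). The FOSL2 promoter (chr2:28389561-28393880) fell by 1.43 in EGF-BT474 (adjusted p = 0.01207), but the difference was −0.08 with scores summed over its peaks (adjusted p = 0.6086).

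EGF-BT474R at 1 h fell by 30.6 at FOSL2 −11.0 kb (adjusted p = 0.01407), fell by 17.6 at JUN −41.1 kb (adjusted p = 0.02822) and fell by 11.4 at FOSL2 −9.4 kb (adjusted p = 0.03012). None of the 20 BT474 libraries had a peak at these 3 regions. The 1 h control lists of BT474R held 56494 and 54256 peaks and the EGF lists 51503 and 47474. Over all regions, 439 rose and 1595 fell in this comparison. The part of list length in these falls was not tested. All 3 calls were lost when the 12 h libraries were left out of the fit (adjusted p = 0.07375, 0.1107 and 0.1176). Without control replicate 1 at 1 h the count was 0.

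**Figure D5:**
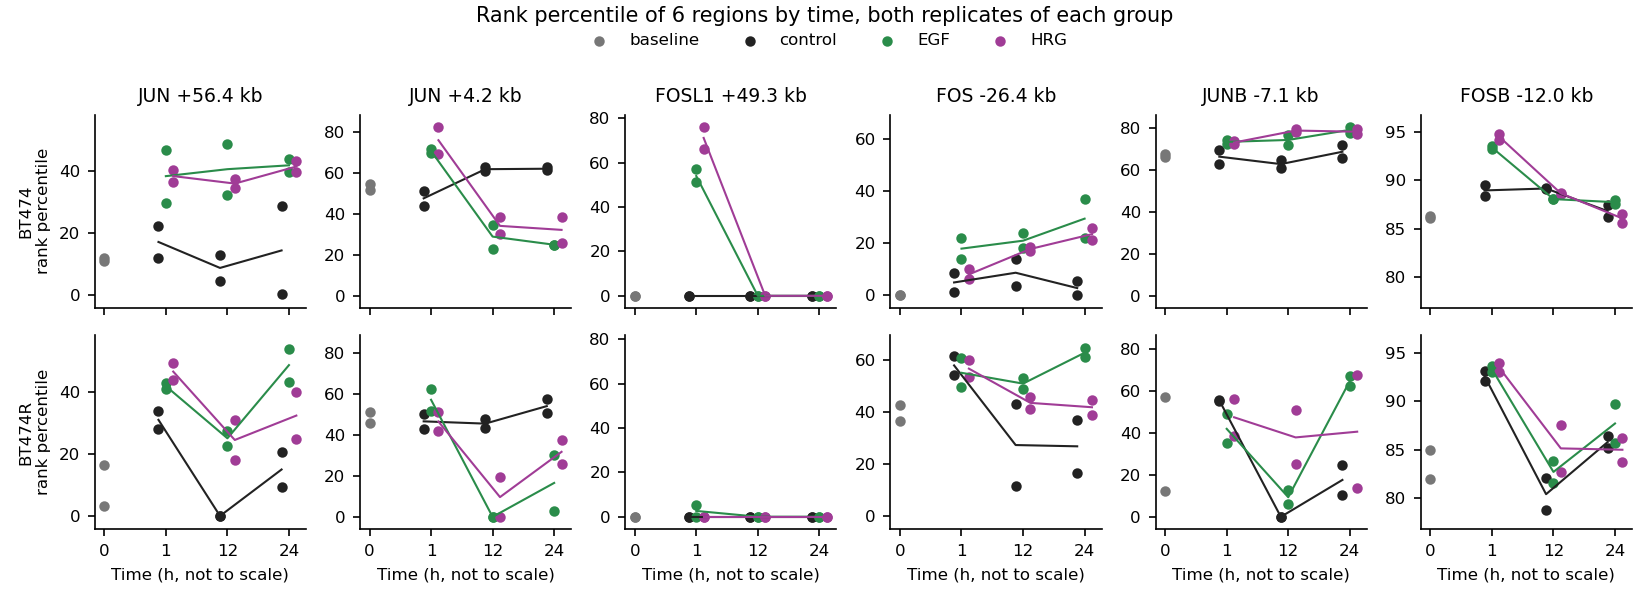
Rank percentile (y axis) of 6 regions at 0, 1, 12 and 24 h (x axis, not to scale) in BT474 (upper row) and BT474R (lower row). Points are single libraries and lines join group means, with baseline in grey, control in black, EGF in green and HRG in magenta. FOSL1 +49.3 kb is above 0 at 1 h with ligand, and JUN +4.2 kb crosses from above to below the BT474 control between 1 and 12 h.

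Some of these ligand calls held under every alternative that could be computed and with any 1 library of the line left out. In BT474, leaving aside FOSL1 +49.3 kb, which the filter itself selected, they were FOS −26.4 kb for EGF, and JUN +10.5 kb, JUNB −7.1 kb, JUND +2.0 kb and FOSL2 −33.0, −14.4 and +2.2 kb for HRG over the 3 times. In BT474R the EGF call at JUN +56.4 kb held likewise. Not every alternative could test each of these regions. All but JUNB −7.1, JUND +2.0 and FOSL2 −14.4 kb lacked a peak in some libraries of the line. The filter for a peak in every library and ranks among regions open in all lists left those out, and the latter also JUNB −7.1 kb. The low control and ligand peaks at FOS −26.4, FOSL2 −33.0 and FOSL2 +2.2 kb in BT474 are dropped with equal numbers of top peaks. Apart from FOSL1 +49.3 kb and FOSB −12.0 kb, each 1 h call in either line was lost without 1 library or another of that line, with a highest adjusted p of 0.06232 to 0.2339. By the rank of the summit, the pooled calls lost included those at JUN +4.2 kb and the JUNB promoter for both ligands, at FOS −23.9 kb, JUNB −5.1 kb, JUND +2.0 kb and FOSB +1.9 kb for EGF-BT474, at FOS −26.4 kb and JUNB −16.1 kb for HRG-BT474, at FOSB −44.0 kb and FOSB +1.9 kb for EGF-BT474R and at JUN +56.4 kb for HRG-BT474R. At 1 h they included FOSB +46.8 kb and JUNB −1.8 kb for both ligands and FOSL2 +2.2 kb for HRG-BT474. The FOSB +1.9 kb calls in HRG-BT474 and EGF-BT474R were lost without the 12 h libraries.

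Whether a ligand effect differed between the lines was tested as the interaction over the 3 times. For EGF, 1 of 85 member regions passed (1.18%, all regions 9.11%) and for HRG 5 of 85 (5.88%, all regions 6.34%), with medians over members of −0.42 and 1.01 beside −1.13 and 1.61 over all regions. At FOSL1 +49.3 kb, FOSL2 +53.5 kb and FOSL1 −11.3 kb the peaks behind the test lay in BT474 ligand libraries (with 1 EGF-BT474R library at the first), so the values there restate the BT474 difference. FOSL1 +49.3 kb had a difference of −17.1 for EGF (adjusted p = 2.897e-07) and −23.7 for HRG (adjusted p = 5.005e-09). The HRG effect at JUN +10.5 kb was higher in BT474R by 16.01 (adjusted p = 0.005414) and at FOSL2 +2.2 kb by 17.7 (adjusted p = 0.02792). FOSL2 +53.5 kb (−2.46, adjusted p = 0.0174) and FOSL1 −11.3 kb (−6.13, adjusted p = 0.03094) had no peak in any BT474R library. The EGF effect at JUN +56.4 kb, FOS −26.4 kb and JUN +4.2 kb was called in both lines and did not pass the interaction.

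The lines themselves differed at most of the family's regions, as they did across the genome. By presence, 23 of 29 member regions that could be called differed (Fisher's exact test, adjusted p below 0.05, all regions 71.7%), 10 more often open in BT474R and 13 less often. By rank, 64 of 85 differed (75.3%, all regions 77.7%), 21 higher in BT474R and 43 lower, with a median difference of −1.71 beside −1.22 over all regions. Both shares lie near those of all regions. Fewer gene copies, a deletion and closed chromatin cannot be told apart in peak lists.

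On the 3′ side of FOS, several regions were open less often in BT474R, where 71.7% of all regions that could be called differed by presence. FOS +28.3 kb (chr14:75307010-75307282) was open in 20 of 20 BT474 libraries (lowest 23.5, median 32.9, highest 43.4) and in 0 of 20 BT474R libraries (exact adjusted p = 1.906e-10). Its rank call was lost with an equal number of top peaks per list. FOS +29.1 kb was open in 20 and 6, FOS +17.2 kb in 15 and 2, FOS +24.9 kb in 12 and 0 and FOS +39.6 kb in 11 and 0. FOS +24.9 kb and FOS +39.6 kb ranked low in BT474 too, with mean percentiles of 2.80 and 6.75 in its controls. FOS +15.5 kb, open in all 40, was lower in BT474R with no overlap (84.0 to 86.6 against 70.7 to 82.0, difference −7.69, adjusted p = 1.774e-11). The FOS promoter was lower in BT474R (difference −15.5, SE 1.59, adjusted p = 5.483e-09), with a median of 81.6 (75.6 to 97.0) in BT474 and 73.0 (47.1 to 82.6) in BT474R. With scores summed over its peaks the difference was −7.35 (adjusted p = 1.674e-11), smaller than with its highest-ranked peak alone. Upstream the picture was mixed: FOS −26.4 kb was higher in BT474R by 32.8 (adjusted p = 1.039e-11), FOS −19.6 kb was lower (−4.48) and FOS −23.9 kb differed by 0.25 (adjusted p = 0.6188).

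The JUNB locus lost JUNB −8.8 kb (chr19:12782139-12783207, HOOK2 intron), open in 20 of 20 BT474 libraries at 59.2 to 77.0 (median 73.0) and in 0 of 20 BT474R libraries. That difference of −72.1 (SE 0.920, adjusted p = 3.467e-26) was the largest of the 85. JUNB −7.1 kb and JUNB −13.3 kb on either side of it were lower (−37.3 and −33.1), and JUNB +41.2 kb was open in 19 and 0 libraries. JUNB −5.1 kb and the promoter, closer to the gene, differed less, by −1.71 and −3.44 (adjusted p = 0.003779 and 3.04e-10). Summed over its peaks, the promoter differed by −0.68 (adjusted p = 1.106e-06), and JUNB −1.8 kb was higher in BT474R by 2.40 (adjusted p = 6.706e-08).

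JUND moved the other way. Its promoter (chr19:18281004-18282642) was higher in BT474R by 4.03 (SE 0.386, adjusted p = 1.665e-09), with medians of 88.9 (85.7 to 93.3) and 93.8 (87.9 to 95.8). JUND −11.8 kb (chr19:18292925-18293962) was open in 5 BT474 and 20 BT474R libraries, with medians of 0 and 49.3 (adjusted p for presence 3.155e-06). JUND −38.4 kb (an LSM4 intron) was higher by 36.0 (adjusted p = 8.576e-11), and JUND +26.2 kb and JUND +48.5 kb were open in 1 and 0 BT474 and in 9 and 8 BT474R libraries.

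At JUN, the line difference of the promoter was −0.67 (adjusted p = 0.007628) by score, −0.16 with scores summed (adjusted p = 0.04811) and 0.94 by the rank of its summit (adjusted p = 0.001444), so its direction depended on the measure. JUN +10.5 kb was higher in BT474R by 26.4 (adjusted p = 1.833e-14) and JUN −31.2 kb lower (−10.5), and JUN −27.4 kb and JUN −41.1 kb were each open in 0 BT474 and 6 BT474R libraries. JUN +56.4 kb, the region that rose with both ligands, did not differ between lines beyond its spread (−1.34, SE 2.47, adjusted p = 0.6154).

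In the FOSL2 window, FOSL2 −45.6 kb was open in 20 BT474 libraries at 51.8 to 68.5 and in 3 BT474R libraries at up to 22.5 (difference −61.7, adjusted p = 1.797e-21). FOSL2 −11.0 kb and FOSL2 +14.4 kb were open in 0 BT474 and in 11 and 7 BT474R libraries. FOSL2 −33.0 kb was higher by 28.0 and FOSL2 −36.1 kb lower (−27.7), and the FOSL2 promoter differed by 0.09 (SE 0.480, adjusted p = 0.8606), by −0.26 with scores summed (adjusted p = 0.002258) and by 1.065 by the rank of its summit (adjusted p = 0.0005488). In the FOSB window, FOSB +25.5 kb (an RTN2 exon), FOSB +41.4 kb and FOSB +40.7 kb (both in VASP introns) were open in 0 BT474 and in 15, 13 and 7 BT474R libraries, and the FOSB promoter was lower (−10.0, adjusted p = 0.01069).

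In the FOSL1 window the mean rank was lower in BT474R at 9 of 10 regions, counted by sign alone. Over all 71600 regions, 32962 were called lower, with a median difference of −1.22. FOSL1 +49.3 kb and FOSL1 −11.3 kb are among the 9. Their peaks lay in BT474 ligand libraries (with 1 EGF-BT474R library at the first), so they say little about the lines. FOSL1 +15.7 kb (a FIBP intron) had a median of 53.1 (47.0 to 59.0) in BT474 and 30.8 (11.0 to 42.8) in BT474R, a difference of −24.7 (adjusted p = 1.164e-11) with no overlap. FOSL1 −18.8 kb and FOSL1 +12.0 kb were lower (−5.58 and −6.31), also with no overlap. The FOSL1 promoter was lower (−2.39, SE 0.735, adjusted p = 0.005371), but among regions open in all lists it was higher in BT474R by 0.43 (adjusted p = 0.6949). With an equal number of top peaks per list, which drops the lowest peaks, the rank calls at FOS +28.3 kb, FOSB +41.4 kb and the FOSB promoter were lost.

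Of the sequence features, an AP-1 match within the 201 bp around the summit was in 4 of the 85 member regions (4.706%), against 16.272% of all 71600. With the middle base limited to C or G, a match was again in 4 (4.706%), against 12.972% of all. The 4 were JUN +56.4 kb and FOSB −12.0 kb, each with 2 matches (1 of those at FOSB −12.0 kb lies outside the 101 bp shown above), JUN −39.6 kb with 2 and the FOSL2 promoter region with 1. CRE-like matches were in 9 (10.588%, all regions 8.689%), among them the promoter regions of FOS, FOSB and JUND, JUN +10.5 kb and FOSL2 −33.0 kb. The CArG box, the motif of SRF, was in 4 (4.706%, all regions 0.94%), GGGCGG, bound by SP1, in 35 (41.176%, all regions 19.32%) and CCGGAA, bound by ETS factors, in 13 (15.294%, all regions 6.918%). Both strands were searched, and no AP-1 match can also be a CRE-like match at the same bases, the spacing being different. Among 35116 RefSeq promoters of the same length, 7.709% held an AP-1 and 11.513% a CRE-like match. FOSL1 +49.3 kb and JUN +4.2 kb held neither motif in their windows.

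Promoters of related genes were counted from lists chosen with earlier results of these data known. Of 12 AP-1 partners (ATF, BATF, JDP2 and MAF genes), 10 had a promoter region and 9 were open in all 40 libraries. MAFK, a small MAF protein that pairs with other zipper factors, rose in EGF-BT474 by 3.26 (adjusted p = 0.02001) and in HRG-BT474 by 4.18 (adjusted p = 0.004429), with 11.5 at 1 h of HRG (adjusted p = 0.0005766), and MAF fell in HRG-BT474 by 17.8 (adjusted p = 0.02673). None of the 10 passed a ligand test in BT474R, where 0.856% to 16.5% of all regions did, depending on the test. Of 12 upstream regulators, among them SRF, ELK1 and CREB1, all had a promoter region and 9 were open in all libraries (all regions 35.148%). Of these 12, 0 passed any of the 8 ligand tests by limma, where 0.856% to 19.6% of all regions passed, depending on the test. Between the lines, 4 partners and 3 regulators were higher in BT474R and 3 and 5 lower (all regions 77.7% called), with BATF and JDP2, which lie on the same chromosome as FOS, lower (−31.4 and −55.5).

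Of 12 known AP-1 targets, 9 had a promoter region. TIMP1, a protease inhibitor, rose by 13.6 in EGF-BT474 (adjusted p = 0.005936), 11.6 in HRG-BT474 (adjusted p = 0.01445) and 22.6 in EGF-BT474R (adjusted p = 0.03861). EGF-BT474R had 4 up and 0 down of 9 (all regions 16.5% called in either direction), including MMP1, a collagenase, by 41.9 (adjusted p = 6.279e-05) and PLAU, the urokinase plasminogen activator, by 30.0 (adjusted p = 0.002665). HRG-BT474R had MMP1 up by 28.0 (adjusted p = 0.00506). The EGF effect was larger in BT474R for MMP1 by 35.9 (adjusted p = 0.0006101) and for PLAU by 24.1 (adjusted p = 0.02971). Beside these, the basal marker KRT5 rose in BT474R by 12.2 with EGF and 10.6 with HRG (adjusted p = 0.005541 and 0.02966). KRT5 had percentiles of 0 to 29.9 in BT474R controls, 0.178 to 35.7 with EGF and 9.99 to 27.2 with HRG, whereas KRT14 and TP63 had no region, and its part in these results was not tested.

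For each member promoter open in all libraries, the promoters whose ranks followed it most closely over the 40 libraries were found among 8346 promoters open in all of them, by Spearman's rho as a description. The closest were EMD (0.930) and the shared start of CCDC96 and TADA2B (0.919) for JUND, EGR1 (0.909), itself an immediate early gene, for JUNB, and ZBTB44 (0.898) and TRIM52 (0.880) for FOS. FOSL1 was closest to RABGEF1 (0.807), JUN to PLXDC2 (0.768) and FOSL2 to PBRM1 (0.709). The points share their line and list length, and BT474 and BT474R libraries form separate clusters at several of these promoters.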

How the data were processed

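ATAC-seq peak lists of 40 libraries (20 groups of 2) were analysed. The authors trimmed reads with Trim Galore 0.6.6 after FastQC, aligned them to GRCh38.p13 (hg38) using BBMap, and after sorting in samtools ran Genrich on each library alone to call peaks. Genrich also removed mitochondrial reads and reads in ENCODE blacklisted regions, and its other options were not given in the sources used here. For each peak the deposited lists hold a signal value, the area under the significance curve in that library (lowest value 200), and the −log10 p and −log10 q values at the summit, which the authors' caller computed within each library. Both depend on read depth, which is unknown here because reads were not analysed, so lists were compared by presence and by rank. For the same reason the study's own model, which uses read counts, was not run.

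Peaks sharing at least 1 bp were merged, and regions on chromosomes 1 to 22 and X with a peak in at least 2 lists were kept. Gene positions came from GENCODE release 44, and a promoter was the region over the 5′ end of the gene or the nearest within 1 kb. The members and gene lists were chosen with earlier results of these data known. Presence was tested with Fisher's exact test (two-sided), limited to regions whose totals could reach p = 0.05. Line presence calls used Benjamini-Hochberg adjusted values, ligand presence calls unadjusted ones. Rank percentiles (0 where no peak) were fitted with limma (group means, eBayes with trend), within a line for ligand contrasts and over 40 libraries for the line and interaction contrasts. Every adjusted p of a rank difference is a limma p with Benjamini-Hochberg adjustment over all regions tested, and differences are in percentile points. Scripts were tested on simulated data.

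Named by rule were the 7 promoters, up to 10 called regions per comparison by smallest p, the highest other region of each window and up to 4 genes per list. Other named regions were chosen after their values were seen. Of the promoters most alike to JUNB, 1 is not reported here. Sequences came from the GRCh38 genome and RefSeq tables. Alternatives were a 10 kb window, a peak in every library, the summit rank, normal scores, equal numbers of top peaks, ranks among regions open in all lists, a minimum score of 400, at least 4 lists, 50% coverage, peaks trimmed to 400 bp, a replicate block and each library left out. Leaving out the 12 h libraries and summing scores over a region's peaks were added after seeing the data. Computation used R 4.3.3 with limma 3.58.1, and Python 3.11.15 with scipy 1.17.1, pandas 2.3.3, numpy 2.4.6 and matplotlib 3.10.9.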

Additional observations from a re-analysis of the deposited data

Results flagged for a closer look

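Ligand effects at 5 regions near the family's genes differed between the lines by the limma interaction test. With the BT474 effect subtracted from the BT474R effect, FOSL1 +49.3 kb had −17.12 percentile points for EGF (adjusted p = 2.897e-07) and −23.71 for HRG (adjusted p = 5.005e-09), the region having peaks in BT474 ligand libraries and 1 EGF-BT474R library only, and the EGF value was not called with normal scores (adjusted p = 0.07717). For HRG it was 16.01 at JUN +10.5 kb, not called with equal numbers of top peaks (adjusted p = 0.4894). It was 17.66 at FOSL2 +2.2 kb, not called by summit rank, with normal scores or without the 12 h libraries (adjusted p = 0.2151, 0.07667 and 0.1021). It was −2.456 at FOSL2 +53.5 kb, not called by summit rank (adjusted p = 0.8747), and −6.127 at FOSL1 −11.3 kb, not called by summit rank, with normal scores or without the 12 h libraries (adjusted p = 0.2759, 0.2175 and 0.9342). Both of these regions had peaks in BT474 ligand libraries only, so their values restate the BT474 difference.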

How the results depend on the processing

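Depth was unknown, each group had 2 libraries, and a lower rank may come from other peaks of the same list. Counts of called member regions moved as follows, and where no construction is named the cause was not tested. The 10 kb window, which holds fewer regions, gave by rank 9 in EGF-BT474 (14 at 50 kb) and 8 in HRG-BT474 (20), with 3 and 4 at 1 h (7 and 10), 4 in EGF-BT474R (7), with 1 at its 1 h (3), 1 in HRG-BT474R (2), 20 between lines (64) and 0 and 2 for the EGF and HRG interactions (1 and 5), and by presence 4 between lines (23). The filter for a peak in every library, which tests fewer regions, gave 13 for HRG-BT474, 1 for HRG-BT474R, 0 for EGF-BT474R at 1 h, 30 between lines and 0 for both interactions. Ranks among regions open in all lists, also fewer, gave 10 for HRG-BT474, 1 and 2 at 1 h for EGF- and HRG-BT474, 0 for EGF-BT474R at 1 h, 30 between lines and 0 for both interactions. Summit ranks gave 6 in EGF-BT474 (4 at 1 h), 10 in HRG-BT474, 2 in EGF-BT474R (1 at 1 h), 0 in HRG-BT474R and 2 for the HRG interaction. Equal numbers of top peaks gave 11 for EGF-BT474R, 0 at its 1 h, 4 for the EGF interaction, 1 by presence for HRG-BT474 and EGF-BT474R and 13 by presence between lines. A minimum score of 400 gave 1 by presence for HRG-BT474, and normal scores gave 1 for EGF-BT474R at 1 h. Without the 12 h libraries, fewer samples, the counts were 11 for HRG-BT474, 2 for EGF-BT474R, 0 at its 1 h, 0 for HRG-BT474R and 2 for the HRG interaction. Directions reversed by summit rank at FOSL2 −0.7 kb with EGF-BT474 (0.1001), FOSB −12.0 kb with HRG-BT474 over the 3 times (−0.0768) and JUN +0.2 kb between lines (0.9361). Between lines they reversed with equal top peaks at FOSL1 +0.1 kb (0.6577) and JUND +2.0 kb (0.01978), and among regions open in all lists at FOSL1 +0.1 kb (0.4266). Of 1515 values of single regions under alternatives, 1257 kept their direction and side of the threshold.

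With each library left out in turn, the rank counts ranged from 11 to 16 in EGF-BT474 and 13 to 21 in HRG-BT474, with 2 to 8 and 3 to 11 at 1 h, and from 4 to 9 in EGF-BT474R and 0 to 5 in HRG-BT474R, with 0 to 4 and 0 to 2 at 1 h, 61 to 66 between lines and 1 to 4 and 3 to 7 for the EGF and HRG interactions. Presence counts were 0 to 0 for EGF-BT474, EGF-BT474R and HRG-BT474R, 0 to 1 for HRG-BT474 (1 without control replicate 1 of 12 or 24 h) and 23 to 25 between lines. HRG-BT474 fell to 13 without control 1 h replicate 1. At 1 h, EGF-BT474 had 3 without EGF replicate 2, and HRG-BT474 had 6 without control replicate 1 and 5 without either HRG replicate. EGF-BT474R had 4 without EGF 24 h replicate 2, and 1 at 1 h without either EGF 1 h replicate. HRG-BT474R had 0 without HRG 1 h replicate 2 or control 24 h replicate 1, 5 without control 12 h replicate 2, and 1 without control 1 h replicate 1, HRG 1 h replicate 1, either EGF replicate at 1 or 12 h, control 12 h replicate 1, either HRG 12 h replicate or HRG 24 h replicate 1. At its 1 h it had 2 without control 1 h replicate 2 and 1 without either baseline or either HRG 24 h replicate. The EGF interaction had 4 without either BT474R baseline or control 1 h replicate 2 of BT474R, and 2 without EGF 1 h replicate 2, either control or either EGF replicate at 24 h of BT474, or either EGF 1 h replicate, either HRG 24 h replicate or EGF 24 h replicate 1 of BT474R. The HRG interaction had 3 without control 1 h replicate 2, control 12 h replicate 2 or HRG 24 h replicate 2 of BT474 or HRG 1 h replicate 2 of BT474R.

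Same-numbered replicates did not deviate together in the median pair of groups, though they did in some pairs. Over 45 pairs of groups in each line the correlation had a median of −4e-04 in BT474 (−0.1817 to 0.5827, 4 pairs over 0.1) and of 0.0095 in BT474R (−0.2809 to 0.4286, 10 over 0.1). A replicate block moved the count of the EGF interaction from 1 to 2. Under the block the rank counts were 13, 16, 6 and 10 for EGF- and HRG-BT474 over the times and at 1 h, 9, 3, 3 and 0 in BT474R, 66 between lines and 5 for the HRG interaction, and presence counts were 0 for each ligand comparison and 23 between lines.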
